A study of Mus musculus with 19 samples.

Results

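The insulin receptor, its docking proteins, the phosphoinositide 3-kinase (PI3K) they engage and the FOXO transcription factors downstream were examined as 9 genes chosen by name: Insr, Irs1, Irs2, Pik3ca, Pik3r1, Pik3ip1, Akt1, Foxo1 and Foxo3. They were chosen with earlier results of these data known. They are 9 of the 51707 genes measured, and all 9 passed the low-count filter in each comparison. The series holds RNA-seq of cells sorted from mouse pancreatic ductal adenocarcinomas grown by orthotopic transplantation of T-LOH KPC organoids into C57BL/6J mice, which were treated for 2 weeks with neratinib, an irreversible ERBB receptor tyrosine kinase inhibitor, or with vehicle. PDPN+ cells, labelled as CAFs (cancer-associated fibroblasts), gave 4 neratinib and 4 vehicle libraries, and EpCAM+ cells, labelled as epithelial, gave 5 neratinib and 6 vehicle libraries. All groups share the organoid graft and the host strain, and the labels used here give no age and do not state whether one or several organoid lines were used. Each label carries a 5-digit number that is taken here to be the mouse, which is an inference. On that reading 11 mice were used, 8 gave both populations, 3 gave EpCAM+ cells alone, and none received both treatments. A library is called below by N (neratinib) or V (vehicle) and its mouse number.

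Insulin binding to its receptor leads to tyrosine phosphorylation of the IRS docking proteins, which recruit PI3K. The lipid that PI3K makes activates AKT, and AKT phosphorylates FOXO factors and holds them out of the nucleus. When AKT activity falls, nuclear FOXO factors are known in several cell types to raise transcription of receptors and docking proteins, INSR and IRS2 among them, a feedback that has been described for PI3K and receptor tyrosine kinase inhibitors.

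Libraries held 30.3 to 48.1 M (mega) reads assigned to genes in PDPN+ cells and 39.4 to 75.4 M in EpCAM+ cells. The sort was visible in the target genes. Pdpn averaged 402 ± 35.1 CPM in PDPN+ neratinib and 540 ± 145 CPM in PDPN+ vehicle libraries, against 1.42 ± 0.896 CPM in EpCAM+ neratinib and 1.70 ± 0.844 CPM in EpCAM+ vehicle libraries (SD; CPM is counts-per-million after TMM scaling over all 19 libraries). Epcam averaged 0.08 ± 0.0928 CPM in PDPN+ neratinib and 0.283 ± 0.334 CPM in PDPN+ vehicle libraries. In EpCAM+ cells it averaged 261 ± 205 CPM in neratinib and 444 ± 382 CPM in vehicle libraries. Summed fibroblast markers reached 22400 to 42100 CPM in PDPN+ cells against 18.6 to 270 CPM in EpCAM+ cells, whereas summed epithelial markers were 443 to 1970 CPM in PDPN+ cells against 22000 to 32200 CPM in EpCAM+ cells. Krt8 was the highest epithelial marker in PDPN+ cells, at means of 487 CPM in neratinib and 484 CPM in vehicle libraries. Its log2 difference between populations was −3.56, against −11.05 for Epcam. Mitochondrial genes took 6.14 to 19.4% of reads in PDPN+ and 2.15 to 2.89% in EpCAM+ libraries. The PDPN+ libraries V53175 and V53188 stood apart with 12102 and 11924 genes at 10 reads or more, against 13691 to 18602 in the other 6 PDPN+ libraries. The EpCAM+ libraries V53175, V53176 and N53178 stood apart on the first principal component. Their summed islet markers were also the highest, at 902, 1260 and 623 CPM, against 41.2 to 356 CPM in the other EpCAM+ libraries. The part of these markers in that component was not tested. For the 9 genes, calls that change and estimates that move by over 1.5 times without these libraries are given both ways, apart from estimates near 0. In bulk samples of this kind, fewer cells of a type and less RNA per cell cannot be told apart.

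The docking protein gene Irs2 was higher in PDPN+ cells and Irs1 lower, together with higher Foxo1, Pik3ca and Pik3r1 and lower Pik3ip1. Of the 9 genes, 4 were higher in PDPN+ cells, 2 were lower and 3 did not pass (edgeR quasi-likelihood test over all genes, Benjamini-Hochberg adjusted p under 0.05). Among all 19626 genes tested, 49.3% passed, 24.3% higher and 25.0% lower, so a difference between these populations is common among genes at large. The genes are therefore described one by one, in the order receptor, docking proteins, kinase subunits and inhibitor, AKT and FOXO.

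**Figure D1:**
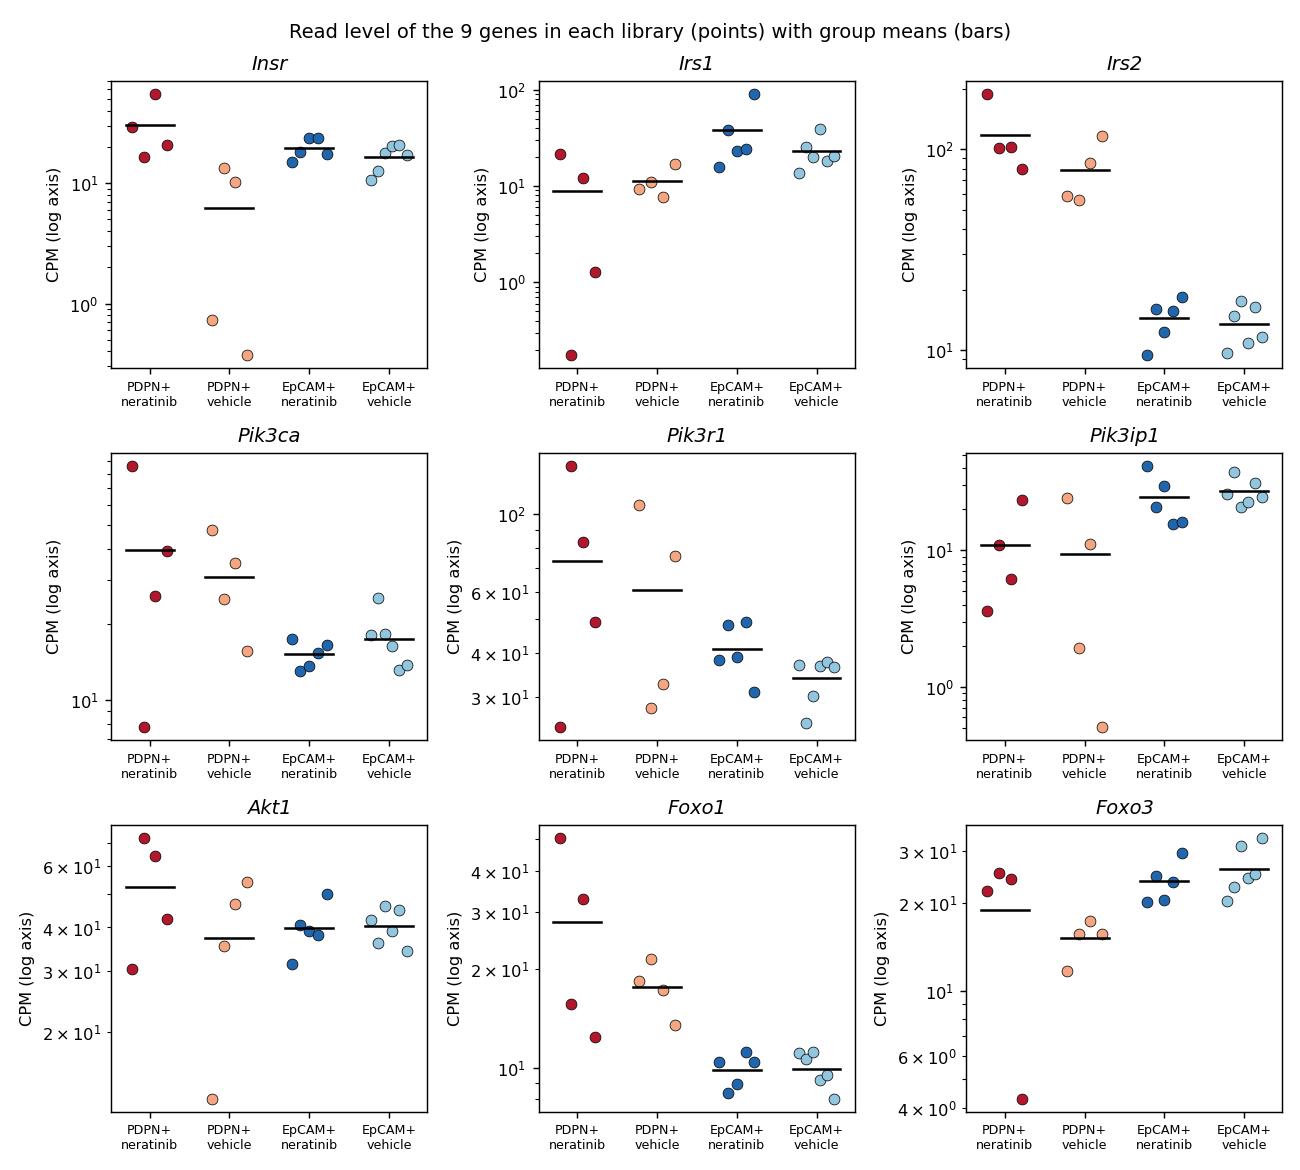
CPM (log axis) of the 9 genes in each library (points) with arithmetic group means (bars), in PDPN+ neratinib, PDPN+ vehicle, EpCAM+ neratinib and EpCAM+ vehicle cells. All 8 PDPN+ libraries lie above all EpCAM+ libraries for Irs2 and Foxo1, and Insr is lowest in a pair of PDPN+ vehicle libraries at 0.373 and 0.726 CPM.

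Insr encodes the insulin receptor. In PDPN+ neratinib libraries it had 29.0, 16.4, 54.9 and 20.7 CPM (N53178, N53180, N53184 and N53194), and in PDPN+ vehicle libraries 0.726, 13.4, 10.2 and 0.373 CPM (V53175, V53179, V53185 and V53188). In EpCAM+ neratinib libraries it had 14.9, 18.3, 23.8, 23.7 and 17.4 CPM, and in EpCAM+ vehicle libraries 10.6 to 20.7 CPM with a median of 17.5 CPM. The PDPN+ libraries thus spanned the whole range and enclosed the EpCAM+ libraries, with the low end held by the 2 vehicle libraries that had the fewest genes. Those 2 held 23 and 11 Insr reads, whereas every other PDPN+ library held at least 552. The population difference did not pass (log2 difference −0.40, SE 0.50, adjusted p = 0.541 by edgeR), and it was 0.01 without V53175 and V53188 of the PDPN+ sort. Pooled over libraries, transcripts with retained introns took 32.9% of Insr reads in PDPN+ and 17.3% in EpCAM+ cells. They took 51.2% of Insr TPM in PDPN+ and 39.2% in EpCAM+ cells (TPM, transcripts-per-million, corrects for length). Such reads were uneven in PDPN+ cells, at 0 to 925 per library and present in 5 of 8. In EpCAM+ cells they were at 126 to 263 and present in 11 of 11.

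Irs1 and Irs2 encode the main docking proteins of the insulin and IGF1 receptors, and each is represented here by a single transcript. Irs2 had 188, 101, 102 and 79.4 CPM in PDPN+ neratinib libraries and 58.2, 55.9, 85.4 and 116 CPM in PDPN+ vehicle libraries. In EpCAM+ neratinib libraries it had 9.44, 16.0, 12.3, 15.7 and 18.4 CPM, and in EpCAM+ vehicle libraries 9.66 to 17.5 CPM with a median of 13.1 CPM. The lowest PDPN+ library stood above the highest EpCAM+ library, and in all 8 mice that gave both populations the PDPN+ library was the higher one. Non-overlapping higher levels of this kind were found for 7.52% of all genes tested. Irs2 averaged 98.2 ± 41.8 CPM in PDPN+ and 13.9 ± 3.21 CPM in EpCAM+ libraries (SD, n = 8 and 11), a ratio of means of 7.07 and a log2 difference of 2.79 (SE 0.23, adjusted p = 9.16e-09 by edgeR). Irs2 passed under all 12 alternatives, with log2 differences of 1.98 to 2.87, and without any 1 of the 19 libraries.

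Irs1 ran the other way. It had 21.6, 0.176, 12.0 and 1.29 CPM in PDPN+ neratinib libraries and 9.31, 11.1, 7.75 and 17.1 CPM in PDPN+ vehicle libraries. In EpCAM+ neratinib libraries it had 15.8, 38.4, 23.1, 24.1 and 89.8 CPM, and in EpCAM+ vehicle libraries 13.5 to 39.3 CPM with a median of 20.3 CPM. The populations overlapped through N53178 and V53188 of the PDPN+ sort, and 6 of 8 PDPN+ libraries lay below every EpCAM+ library. The log2 difference was −1.57 (SE 0.60, adjusted p = 0.0368 by edgeR), and the mean was 2.97 times higher in EpCAM+ cells. The call was lost without the EpCAM+ library N53194 (−1.27, adjusted p = 0.0890), the EpCAM+ library V53185 (−1.51, 0.0522) or the PDPN+ library V53185 (−1.56, 0.0544), and without both PDPN+ libraries that stood apart (−1.76, 0.0552).

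Within a library the 2 docking genes can be set against each other on the TPM scale. The ratio of Irs2 to Irs1 TPM was 13.8, 976, 13.7 and 96.3 in PDPN+ neratinib libraries and 10.0, 8.12, 17.5 and 10.8 in PDPN+ vehicle libraries. It was 0.933, 0.644, 0.818, 1.02 and 0.323 in EpCAM+ neratinib libraries, and 0.437 to 1.39 with a median of 1.00 in EpCAM+ vehicle libraries. Irs2 therefore exceeded Irs1 in 8 of 8 PDPN+ libraries, while in 7 of 11 EpCAM+ libraries Irs1 was the higher of the pair. The ratio of 976 rests on an Irs1 level of 0.0193 TPM in N53180. The summed TPM of both genes averaged 18.7 ± 6.50 in PDPN+ and 8.49 ± 4.17 in EpCAM+ libraries (SD).

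**Figure D2:**
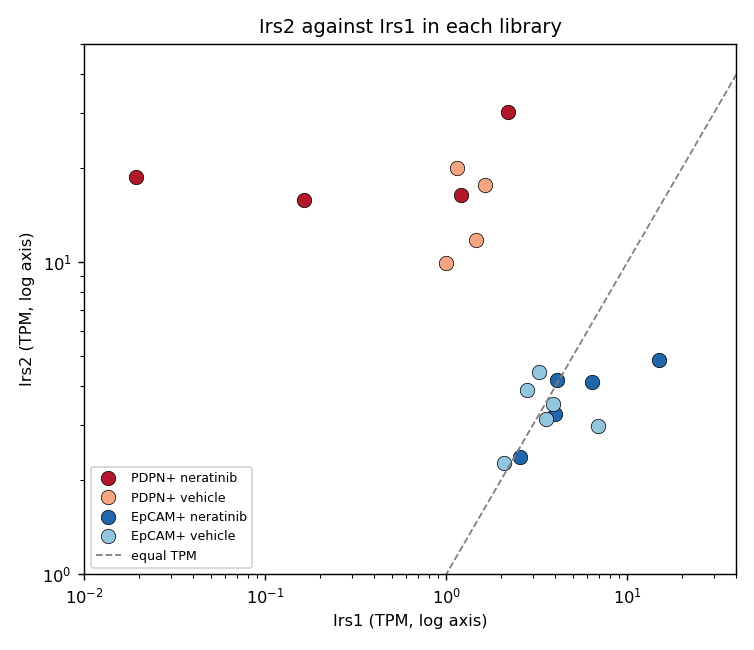
Irs2 TPM against Irs1 TPM in each of the 19 libraries, on log axes, coloured by group, with the dashed line at equal TPM. The 8 PDPN+ libraries lie above the line at ratios of 8.12 to 976, and the 11 EpCAM+ libraries scatter around it at 0.323 to 1.39.

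The promoters of this pair are shown because the genes share a function and differ in opposite directions. RefSeq promoter entries (GRCm38.p6) matched 8 of the 9 genes, all but Insr. The 250 bases before the annotated start are printed 5′ to 3′ on the gene's strand, with capitals on matches to the insulin response type element CAAAACA or its reverse complement TGTTTTG. They come from chr1:82291440-82291689 (Irs1, minus strand) and chr8:11008930-11009179 (Irs2, minus strand).
Irs1: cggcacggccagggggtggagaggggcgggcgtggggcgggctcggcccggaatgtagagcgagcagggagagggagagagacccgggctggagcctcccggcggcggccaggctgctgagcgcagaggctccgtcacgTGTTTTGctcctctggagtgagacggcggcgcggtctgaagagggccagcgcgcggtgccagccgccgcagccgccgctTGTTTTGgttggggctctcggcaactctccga
Irs2: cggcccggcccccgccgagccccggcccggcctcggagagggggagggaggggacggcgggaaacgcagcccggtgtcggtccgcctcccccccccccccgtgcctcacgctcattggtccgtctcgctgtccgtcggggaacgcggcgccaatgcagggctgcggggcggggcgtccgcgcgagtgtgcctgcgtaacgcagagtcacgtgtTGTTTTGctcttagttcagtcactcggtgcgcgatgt
Irs1 held 2 matches and Irs2 held 1, all as TGTTTTG, and the forkhead consensus GTAAACA (reverse complement TGTTTAC) was in neither window, so no 2 motifs overlapped. CAAAACA occurs in 5.56% and GTAAACA in 3.17% of the 32851 promoter windows of this length. Both windows are rich in G and C, at 72.4% for Irs1 and 72.8% for Irs2, against a median of 52.4% over all promoters. The RefSeq start of Irs2 lies 471 bases from the start of its GENCODE transcript, and a match of letters is a description of the window only.

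Pik3ca encodes the catalytic subunit p110 alpha. It had 85.9, 7.79, 25.9 and 39.3 CPM in PDPN+ neratinib libraries and 47.7, 25.2, 35.3 and 15.6 CPM in PDPN+ vehicle libraries. The EpCAM+ neratinib libraries had 17.5, 13.0, 13.6, 15.3 and 16.6 CPM, and the EpCAM+ vehicle libraries 13.2 to 25.5 CPM with a median of 17.3 CPM. The PDPN+ libraries spread more widely and N53180 lay below all EpCAM+ libraries, and in 7 of 8 mice the PDPN+ library was higher. The log2 difference of 1.10 (SE 0.34, adjusted p = 0.0114 by edgeR) was lost without N53178 of the PDPN+ sort (0.69, adjusted p = 0.0678). On the TPM scale a transcript with a retained intron carried 60.6% of Pik3ca TPM in PDPN+ and 48.1% in EpCAM+ cells from 6.04% and 4.17% of the gene's reads. The coding transcripts alone averaged 4.52 ± 2.32 TPM in PDPN+ and 3.46 ± 0.585 TPM in EpCAM+ libraries (SD).

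Pik3r1 encodes the regulatory subunits p85 alpha, p55 alpha and p50 alpha, which hold p110 and bind the docking proteins. It had 24.7, 137, 83.3 and 49.3 CPM in PDPN+ neratinib libraries and 106, 28.0, 32.7 and 75.9 CPM in PDPN+ vehicle libraries. The EpCAM+ neratinib libraries had 38.3, 48.3, 39.2, 49.3 and 31.1 CPM, and the EpCAM+ vehicle libraries 25.4 to 37.9 CPM with a median of 36.8 CPM. The highest 4 PDPN+ libraries stood above all EpCAM+ libraries, and 2 of those 4 were V53175 and V53188. The log2 difference was 0.83 (SE 0.29, adjusted p = 0.0242 by edgeR), and without those 2 libraries it was 0.28 (adjusted p = 0.428). Leaving out V53175 (0.56, adjusted p = 0.111), V53188 (0.69, 0.0678), N53180 (0.53, 0.120) or N53184 (0.72, 0.0621) of the PDPN+ sort singly also ended the call, as did leaving out the 3 EpCAM+ libraries that stood apart (0.81, 0.0696) or the low-count filter (0.72, 0.0628). With transcript length offsets the log2 difference was 1.30 (adjusted p = 0.00278 by edgeR), and DESeq2 also called it (0.80, adjusted p = 0.0185). Of the 12 alternatives, 3 kept the call and 9 lost it.

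Pik3r1 also differed in the transcripts behind its reads, a pattern picked after the values were seen and given without a test. The 454-codon transcript, which encodes p55 alpha, held 290.6 reads in N53184, 363.4 in N53194, 139.6 in V53175, 175.8 in V53179 and 120.8 in V53185 of the PDPN+ sort, and 0 reads in N53178, N53180 and V53188. In EpCAM+ cells it held 4.9 reads in V53179 and 0 in the other 10 libraries. It was thus assigned reads in 5 of 8 PDPN+ libraries and 1 of 11 EpCAM+ libraries, and it took 5.83% of the gene's reads in PDPN+ and 0.0221% in EpCAM+ cells. The 724-codon transcript, which encodes p85 alpha, took 86.8% of the gene's reads in PDPN+ and 94.5% in EpCAM+ cells and averaged 8.16 ± 5.64 TPM in PDPN+ and 7.31 ± 1.66 TPM in EpCAM+ libraries (SD). By TPM the 724-codon transcript took 52.7% of the gene in PDPN+ and 82.7% in EpCAM+ cells, and the 454-codon transcript 8.74% and 0.0508%. Coding transcripts of 112 and 174 codons took more, 14.0% and 15.9% of TPM in PDPN+ against 2.7% and 1.26% in EpCAM+ cells. In PDPN+ cells these short transcripts had over 1 read in 3 and 2 of 8 libraries. Salmon divides reads that fit several transcripts by estimation, so the split within a gene is less certain than the gene's sum.

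The starts of these transcripts lie apart in the genome, and the 250 bases before each are shown from RefSeq (GRCm38.p6, minus strand), with capitals on CG dinucleotides. The window before the 724-codon transcript is chr13:101768218-101768467 and that before the 454-codon transcript is chr13:101692631-101692880.
p85 alpha start: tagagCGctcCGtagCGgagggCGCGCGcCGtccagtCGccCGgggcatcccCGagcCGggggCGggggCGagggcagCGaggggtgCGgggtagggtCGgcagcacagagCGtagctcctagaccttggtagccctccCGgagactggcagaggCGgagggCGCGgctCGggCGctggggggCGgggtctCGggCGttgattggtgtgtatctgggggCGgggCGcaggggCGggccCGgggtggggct
p55 alpha start: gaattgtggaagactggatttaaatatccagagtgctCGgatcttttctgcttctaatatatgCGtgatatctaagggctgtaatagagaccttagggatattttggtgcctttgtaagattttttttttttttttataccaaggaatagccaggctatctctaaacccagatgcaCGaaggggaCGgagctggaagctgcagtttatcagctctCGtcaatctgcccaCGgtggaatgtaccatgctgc
The p85 alpha window held 30 CG dinucleotides at 76.4% G and C, whereas the p55 alpha window held 6 at 42.4%, against medians of 6 and 52.4% over all promoters. Neither window held CAAAACA or GTAAACA on either strand.

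**Figure D3:**
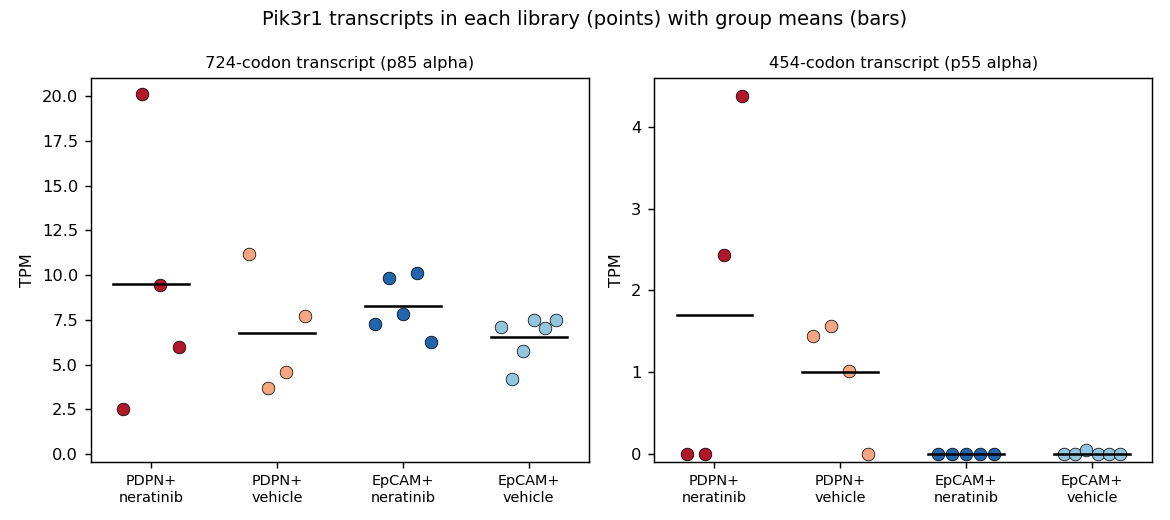
TPM of the 724-codon (p85 alpha, left) and 454-codon (p55 alpha, right) transcripts of Pik3r1 in each library (points) with group means (bars), in PDPN+ neratinib, PDPN+ vehicle, EpCAM+ neratinib and EpCAM+ vehicle cells. The 454-codon transcript reaches 4.37 TPM in PDPN+ cells and at most 0.0494 TPM in EpCAM+ cells, and the 724-codon transcript is present in every library.

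Pik3ip1 encodes a transmembrane protein that binds the p110 subunit and lowers PI3K activity. It had 3.62, 10.9, 6.12 and 23.4 CPM in PDPN+ neratinib libraries and 24.2, 1.93, 11.2 and 0.509 CPM in PDPN+ vehicle libraries. In EpCAM+ neratinib libraries it had 41.5, 20.8, 29.6, 15.6 and 16.0 CPM, and in EpCAM+ vehicle libraries 20.9 to 37.6 CPM with a median of 25.1 CPM. The EpCAM+ library was the higher in 7 of 8 mice, and N53194 and V53175 of the PDPN+ sort fell within the EpCAM+ range. The log2 difference was −1.34 (SE 0.54, adjusted p = 0.0474 by edgeR), a mean 2.54 times higher in EpCAM+ cells. This call is marginal: it was kept without the PDPN+ libraries V53175 (−1.91, adjusted p = 0.00622), N53194 (−1.76, 0.0144) or V53188 (−1.21, 0.0334) or the EpCAM+ library N53193 (−1.44, 0.0454), and lost without any 1 of the other 15 libraries or without the 3 EpCAM+ libraries that stood apart (−1.13, 0.150). Without both PDPN+ libraries that stood apart the log2 difference was −1.65 (adjusted p = 0.00841 by edgeR). Of the 12 alternatives, 8 kept the call and 4 lost it.

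Akt1 encodes the most widely expressed AKT kinase. It averaged 52.3 ± 19.3 CPM in PDPN+ neratinib and 37.3 ± 18.0 CPM in PDPN+ vehicle libraries, and 39.8 ± 6.61 CPM in EpCAM+ neratinib and 40.4 ± 4.72 CPM in EpCAM+ vehicle libraries (SD, n = 4, 4, 5 and 6). The PDPN+ libraries ran from 12.9 CPM in V53175 to 72.4 CPM in N53180 and enclosed the EpCAM+ range of 31.4 to 49.8 CPM. The population difference did not pass (log2 0.14, SE 0.24, adjusted p = 0.664 by edgeR).

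Foxo1 and Foxo3 encode forkhead factors held in the cytoplasm by AKT. Foxo1 had 50.6, 15.7, 32.9 and 12.4 CPM in PDPN+ neratinib libraries and 18.4, 21.5, 17.3 and 13.5 CPM in PDPN+ vehicle libraries. In EpCAM+ neratinib libraries it had 10.4, 8.38, 8.93, 11.2 and 10.4 CPM, and in EpCAM+ vehicle libraries 8.04 to 11.2 CPM with a median of 10.0 CPM. As for Irs2, the groups did not overlap and the PDPN+ library was higher in all 8 mice, but the lowest PDPN+ library, at 12.4 CPM, was close to the highest EpCAM+ library. Foxo1 averaged 22.8 ± 12.9 CPM in PDPN+ and 9.90 ± 1.15 CPM in EpCAM+ libraries (SD, n = 8 and 11), with a log2 difference of 1.17 (SE 0.28, adjusted p = 0.00207 by edgeR) that passed without any 1 library. With transcript length offsets it was 1.12 (adjusted p = 0.00267 by edgeR). On log2(TPM + 1) it was 0.39 (adjusted p = 0.0857 by limma), where the median of all genes was −0.63 in place of −0.13 on counts, so that Foxo1 stood 1.02 above the median. Pik3ca (0.39, adjusted p = 0.400 by limma) and Pik3r1 (0.50, 0.160) did not pass on that scale either, whereas Irs2, Irs1 and Pik3ip1 did. On that scale Pik3ca stood 1.02 and Pik3r1 1.13 above the median of all genes.

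Foxo3 averaged 17.1 ± 6.97 CPM in PDPN+ and 25.1 ± 4.55 CPM in EpCAM+ libraries (SD, n = 8 and 11). It ran from 4.29 CPM in N53194 to 25.4 CPM in N53180 in PDPN+ cells and from 20.1 to 33.4 CPM in EpCAM+ cells, so the ranges overlapped. The log2 difference of −0.56 (SE 0.29, adjusted p = 0.121 by edgeR) did not pass, but DESeq2 called it (−0.59, adjusted p = 0.0359), as did limma on log2(TPM + 1) (−0.95, 0.00347). Relative to the median of all genes, Foxo3 was at −0.43 in the edgeR fit of counts and at −0.32 on log2(TPM + 1). The larger estimate on log2(TPM + 1) was thus not a larger distance from that median.

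The mouse and the code in the deposited file names limit these calls. When the mouse entered as a block, for the 8 mice that gave both, Irs2 alone passed (log2 difference 2.73, adjusted p = 0.000218 by edgeR), while Foxo1 (1.01, 0.110), Pik3ca (0.84, 0.159), Pik3r1 (0.57, 0.203), Irs1 (−2.27, 0.126) and Pik3ip1 (−2.05, 0.0824) kept their direction and did not pass. In the same 8 mice without the block, Foxo1 (1.13, 0.0160) and Pik3ca (1.11, 0.0374) passed with Irs2, while Irs1 (−1.68, 0.0620), Pik3r1 (0.79, 0.0750) and Pik3ip1 (−1.38, 0.0892) did not. The median of all genes was −0.67 in the fit with the block. That code ends in a digit that is read here as a column, which is an inference, since no label explains it. On that reading only column 7 holds both populations. Within column 7, Irs2 had 79.4 and 85.4 CPM in the PDPN+ libraries N53194 and V53185 against 9.44 to 14.7 CPM in 5 EpCAM+ libraries, and Foxo1 had 12.4 and 17.3 CPM in those PDPN+ libraries against 8.04 to 11.1 CPM in the EpCAM+ ones. With the column as a covariate Irs2 passed (2.87, adjusted p = 5.44e-05) and the other 5 calls did not (adjusted p from 0.175 to 0.881). Summed endothelial markers were also higher in PDPN+ cells, at 29.9 to 163 CPM against 3.30 to 25.7 CPM in EpCAM+ cells, and summed islet markers were lower, at 0.180 to 17.4 CPM against 41.2 to 1260 CPM. Of the 10 endothelial markers, Emcn was at 0 in all PDPN+ neratinib libraries, and of the 6 islet markers Pcsk1 was at 0 in every PDPN+ library. Their part in these differences was not tested.

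The genes were ordered by TPM summed over all their transcripts, those with retained introns included. Akt1 led in both populations, at 21.5 ± 8.62 TPM in PDPN+ and 27.6 ± 4.05 TPM in EpCAM+ libraries (SD). In PDPN+ cells it was followed by Irs2 (17.6 ± 6.18 TPM), Pik3r1 (15.5 ± 10.1 TPM), Pik3ca (11.5 ± 8.23 TPM) and Pik3ip1 (5.88 ± 6.44 TPM). Foxo3, Insr and Foxo1 followed at 3.34, 3.32 and 2.78 TPM, and Irs1 was last at 1.10 ± 0.727 TPM. The spread between libraries left most neighbours in this order unresolved: Irs2 exceeded Pik3r1 in 5 of 8 libraries and Pik3r1 exceeded Pik3ca in 3 of 8. Irs1 stood below Foxo1 in 7 of 8.

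In EpCAM+ cells Pik3ip1 came second at 22.2 ± 6.90 TPM and stood above Pik3r1 (8.84 ± 1.82 TPM) in 11 of 11 libraries. Foxo3 (6.75 TPM), Pik3ca (6.67 TPM), Irs1 (4.95 TPM) and Insr (4.35 TPM) followed, with each exceeding the next in 5 to 8 of the 11 libraries. Irs2 was next to last at 3.55 ± 0.833 TPM and Foxo1 last at 1.76 ± 0.178 TPM, lower than Irs2 in 11 of 11 libraries. By gene TPM Irs2 thus ranked second in PDPN+ and next to last in EpCAM+ cells. Irs1 ranked below Irs2 in PDPN+ and above it in EpCAM+ cells. The EpCAM+ place of Irs2 depends on the retained introns counted for its neighbours. There the coding transcripts of Pik3ca averaged 3.46 TPM and the 1372-codon transcript of Insr 2.34 TPM, both below Irs2. In PDPN+ cells the coding transcripts of Pik3ca averaged 4.52 TPM, against 11.5 TPM for the whole gene.

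The effect of neratinib against vehicle, asked in each population on its own, is the study's own question. None of the 9 genes passed in either population. In PDPN+ cells no gene of 14437 passed by edgeR, 331 (2.29%) had an unadjusted p under 0.05, none of them among the 9, and DESeq2 called 13 genes, also none of the 9. In EpCAM+ cells no gene of 17200 passed by edgeR, 524 (3.05%) had an unadjusted p under 0.05, none of them among the 9, and DESeq2 called 8, none of the 9.

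Insr had the largest estimate in PDPN+ cells. Its 4 neratinib libraries, from 16.4 to 54.9 CPM, all lay above its 4 vehicle libraries, from 0.373 to 13.4 CPM, an order that 1.18% of all genes tested share in that direction. It averaged 30.3 ± 17.3 CPM in neratinib and 6.18 ± 6.64 CPM in vehicle libraries (SD, n = 4 each), and the log2 difference was 2.29 (SE 1.17, unadjusted p = 0.0767, adjusted p = 1 by edgeR). Without V53175 and V53188 it was 1.30. The 1372-codon coding transcript taken alone did overlap. It stood at 2.76, 1.78, 2.87 and 0.782 TPM in neratinib and at 0.0683, 1.17, 1.03 and 0.0350 TPM in vehicle libraries, so N53194 lay below V53179 and V53185. A retained-intron transcript, Insr-204, held 925 reads in N53184 and 411 in N53194. Summed adipocyte markers moved in the same direction, at 33.4 to 73.6 CPM in neratinib and 10.6 to 53.0 CPM in vehicle PDPN+ libraries, with Adipoq, Cidec and Lep at 0 in all 4 neratinib libraries. The library with the most Insr, N53184, also held the most leukocyte marker reads, 604 CPM against 28.6 to 156 CPM in the other 7 PDPN+ libraries. Mitochondrial genes took 12.4 to 19.4% of reads in neratinib and 6.14 to 17.3% in vehicle PDPN+ libraries. The part of these markers and of the mitochondrial share in the difference was not tested.

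The other 8 genes in PDPN+ cells had log2 differences between −0.40 (Irs1, SE 1.31) and 0.64 (Foxo1, SE 0.71), each smaller than its standard error except Irs2. Irs2 averaged 118 ± 47.8 CPM in neratinib and 78.7 ± 28.0 CPM in vehicle libraries (SD, n = 4 each; log2 difference 0.56, SE 0.38, unadjusted p = 0.170, adjusted p = 1 by edgeR). Its groups overlapped, since V53188 at 116 CPM exceeded every neratinib library but N53178. Estimates were positive for 8 of the 9 genes, against 52.8% of all genes. For Pik3r1 the estimate depended on the scale and on 2 libraries. It averaged 73.6 ± 48.7 CPM in neratinib and 60.6 ± 37.0 CPM in vehicle libraries but 12.2 ± 6.53 TPM and 18.8 ± 13.0 TPM, and its log2 difference was 0.27 on counts, −0.72 with transcript length offsets and −0.46 on log2(TPM + 1). On counts without V53175 and V53188 it was 1.24 (SE 0.70, adjusted p = 1 by edgeR). Without the same 2 libraries Pik3ip1 was at 0.76 in place of 0.21, Irs1 at −0.20 in place of −0.40, Akt1 at 0.32 in place of 0.49 and Foxo3 at 0.14 in place of 0.32.

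Irs1 was the most variable member under neratinib in PDPN+ cells. N53180 and N53194 held 0.176 and 1.29 CPM, below all vehicle libraries, whereas N53178 at 21.6 CPM was above them all. The group mean was 8.76 ± 10.1 CPM in neratinib against 11.3 ± 4.11 CPM in vehicle libraries (SD, n = 4 each), and the difference did not pass (log2 −0.40, SE 1.31, adjusted p = 1 by edgeR). Both libraries with little Irs1 held Irs2 at 101 and 79.4 CPM.

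In EpCAM+ cells the libraries were closer together and the estimates smaller. Irs1 averaged 38.3 ± 30.0 CPM in neratinib and 22.8 ± 8.90 CPM in vehicle libraries (SD, n = 5 and 6; log2 difference 0.71, SE 0.42, unadjusted p = 0.114, adjusted p = 0.999 by edgeR). The library N53194, at 89.8 CPM, carried most of it: without N53194 the log2 difference was 0.14. Pik3r1 averaged 41.2 ± 7.61 CPM in neratinib and 34.0 ± 5.08 CPM in vehicle libraries (log2 0.26, SE 0.16, unadjusted p = 0.124, adjusted p = 0.999 by edgeR), with 4 of 5 neratinib libraries above all 6 vehicle libraries. Irs2 (0.07, SE 0.20), Akt1 (−0.04, SE 0.13) and Foxo1 (−0.03, SE 0.14) had the smallest log2 differences, and Insr (0.23, SE 0.20), Pik3ca (−0.23, SE 0.18), Foxo3 (−0.17, SE 0.16) and Pik3ip1 (−0.14, SE 0.27) did not pass either. Estimates were positive for 4 of 9 genes, against 49.8% of all genes. Without the 3 EpCAM+ libraries that stood apart the estimates ran from −0.28 (Pik3ip1) to 0.82 (Irs1), with Insr at 0.12 and Pik3ca at −0.09, and none passed.

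The precision differed between the sorts. Standard errors of the 9 neratinib estimates were 0.38 to 1.31 on the log2 scale in PDPN+ and 0.13 to 0.42 in EpCAM+ cells. The SD of Insr CPM over libraries was 97.0% of its mean in PDPN+ and 23.2% in EpCAM+ cells, and that of Irs2 was 42.5% in PDPN+ and 23.1% in EpCAM+ cells. A p that misses the threshold at this spread does not show that expression was equal. The difference of the neratinib effects between populations, tested directly, passed for none of the 9 genes and for 13 of all 19626 (0.0662%). It was largest for Insr (log2 2.04, SE 1.01, unadjusted p = 0.0580, adjusted p = 0.476 by edgeR), and without V53175 and V53188 of the PDPN+ sort it was 1.09 for Insr (SE 0.58, adjusted p = 0.535). Without those 2 libraries the difference was 0.98 for Pik3r1 in place of 0.00, and 0.88 for Pik3ip1 in place of 0.35.

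**Figure D4:**
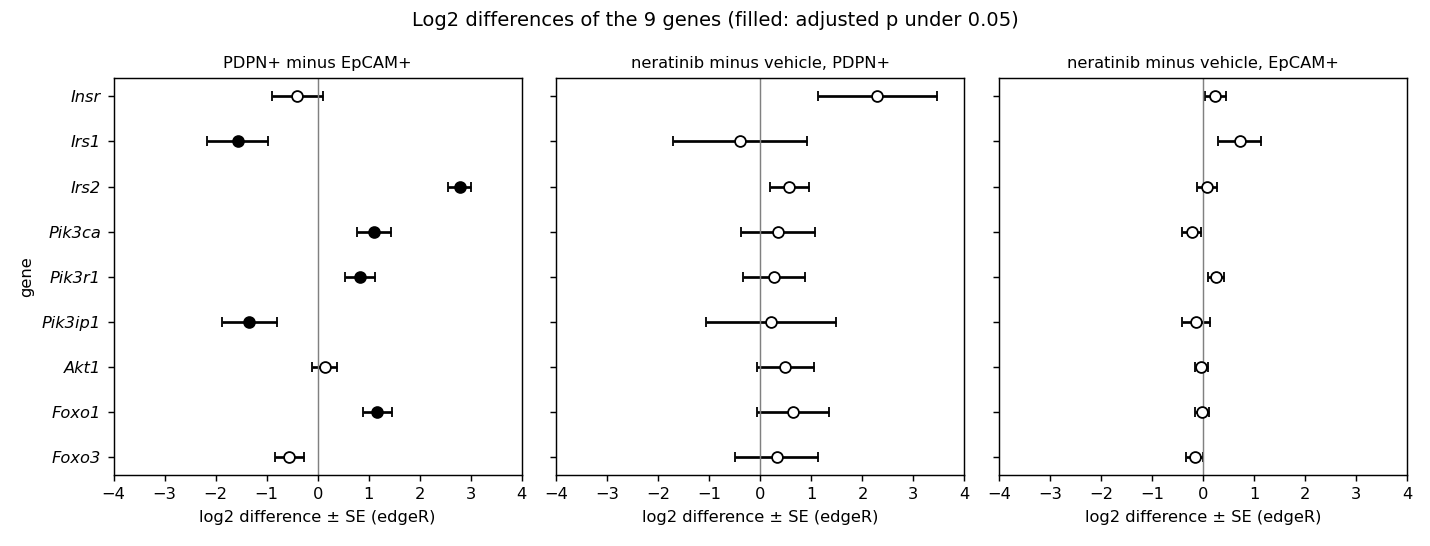
Log2 differences (points) with standard errors (bars) of the 9 genes from edgeR for PDPN+ minus EpCAM+, neratinib minus vehicle in PDPN+ cells and neratinib minus vehicle in EpCAM+ cells, filled where the adjusted p is under 0.05. Filled points occur in the population panel alone, and Irs2 at 2.79 is farthest from 0 relative to its error.

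The rest of the pathway was described from lists of named genes that leave out the 9. Their counts are to be read against the 24.3% of all genes that were higher in PDPN+ cells and the 25.0% that were lower. Among 14 receptors and docking or adaptor proteins, 13 were tested, of which 6 were higher and 1 lower in PDPN+ cells and 6 did not pass, so about as many passed as the 49.3% among all genes, with a median log2 difference of 0.64 against −0.13 over all genes. Grb10, an adaptor that restrains insulin and IGF1 receptor signalling, averaged 511 ± 148 CPM in PDPN+ and 2.48 ± 1.45 CPM in EpCAM+ libraries (log2 difference 7.69, SE 0.50, adjusted p = 6.05e-10 by edgeR). Insrr, a receptor of the insulin receptor family that responds to alkaline pH, was also higher in PDPN+ cells (6.93 ± 5.39 against 0.203 ± 0.246 CPM, adjusted p = 0.000176), as was the adaptor Sh2b2 (6.19 ± 7.99 against 0.390 ± 0.159 CPM, 0.000693). Igf1r, the receptor for IGF1, was the lower one (29.8 ± 14.4 in PDPN+ against 50.7 ± 12.8 CPM in EpCAM+ cells, log2 −0.86, SE 0.24, adjusted p = 0.00505).

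Of 10 other PI3K subunits 9 were tested, of which 1 was higher, 6 were lower and 2 did not pass, against 24.3% higher and 25.0% lower among all genes, with a median log2 difference of −2.67. Pik3cd, the p110 delta subunit known from leukocytes, was the higher one (15.9 ± 19.5 in PDPN+ against 0.758 ± 0.505 CPM in EpCAM+ cells, adjusted p = 8.23e-06 by edgeR). Summed leukocyte markers were 28.6 to 604 CPM in PDPN+ and 30.7 to 87.9 CPM in EpCAM+ libraries, with Nkg7 at 0 in all PDPN+ libraries, and their part was not tested. The class II kinase Pik3c2a averaged 25.5 ± 18.1 CPM in PDPN+ and 156 ± 20.7 CPM in EpCAM+ libraries (log2 −2.67, SE 0.32, adjusted p = 1.45e-06). Pik3c2g had no reads in any PDPN+ library and 15.3 ± 2.25 CPM in EpCAM+ cells, at least 139-fold higher in EpCAM+ cells when each PDPN+ count is put at 3 reads, the floor, in the shallowest library. Pik3cg, the p110 gamma subunit, was near the floor in PDPN+ cells (0.123 ± 0.310 CPM) and at 12.5 ± 8.59 CPM in EpCAM+ cells (adjusted p = 1.48e-05).

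Among 8 phosphoinositide and AKT phosphatases, 1 was higher, 2 were lower and 5 did not pass, against 49.3% passing among all genes. The AKT phosphatase Phlpp2 was higher in PDPN+ cells (8.29 ± 4.22 against 3.42 ± 0.700 CPM, adjusted p = 0.0191 by edgeR). Inpp4b, which removes a phosphate from a PI3K product, averaged 0.0158 ± 0.0331 CPM in PDPN+ and 14.1 ± 3.85 CPM in EpCAM+ libraries (adjusted p = 3.13e-08), and Inpp5d averaged 0.214 ± 0.607 CPM in PDPN+ and 5.77 ± 3.92 CPM in EpCAM+ libraries (0.000354).

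Of 20 AKT and mTOR genes, 4 were higher in PDPN+ cells, 5 were lower and 11 did not pass, near the 49.3% passing among all genes, with a median of −0.32. In contrast to Akt1, the AKT kinase gene Akt2 was higher in PDPN+ cells. It averaged 202 ± 73.6 CPM in PDPN+ and 44.5 ± 15.3 CPM in EpCAM+ libraries (log2 2.18, SE 0.26, adjusted p = 1.47e-06 by edgeR). Deptor, an inhibitor that binds mTOR, was lower (30.7 ± 28.2 in PDPN+ against 200 ± 39.4 CPM in EpCAM+ cells, adjusted p = 1.10e-05), as were Mtor itself (11.9 ± 6.88 against 32.1 ± 13.6 CPM, 0.00448) and its activator Rheb (73.7 ± 53.1 against 190 ± 88.2 CPM, 0.0118).

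Of the other FOXO factors and their regulators, 5 of 6 were tested, 1 was lower and 4 did not pass, against 25.0% lower among all genes. The lower one was Stk4, the MST1 kinase that phosphorylates FOXO factors (14.2 ± 9.00 in PDPN+ against 21.1 ± 3.77 CPM in EpCAM+ cells, adjusted p = 0.0415 by edgeR). Of 18 genes described as FOXO targets in various tissues, 17 were tested: 3 were higher in PDPN+ cells, 7 were lower and 7 did not pass, against 24.3% higher and 25.0% lower among all genes, with a median of −0.06. Sod2, a mitochondrial superoxide dismutase, was higher (297 ± 185 in PDPN+ against 83.0 ± 7.02 CPM in EpCAM+ cells, adjusted p = 3.10e-07), as were the stress-response genes Sesn1 (27.3 ± 18.2 against 10.3 ± 1.70 CPM, 0.0187) and Sesn3 (39.7 ± 38.2 against 18.6 ± 4.11 CPM, 0.0483). Fbxo32, a ubiquitin ligase subunit, was lower (19.7 ± 15.8 in PDPN+ against 66.1 ± 19.4 CPM in EpCAM+ cells, adjusted p = 1.73e-05), as were Klhl24 (71.5 ± 37.7 against 142 ± 24.8 CPM, 0.00840) and the receptor gene Erbb3 (3.68 ± 5.64 against 274 ± 116 CPM, 0.000349).

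Under neratinib no gene of any of these lists passed in either population. In PDPN+ cells the smallest p of the FOXO targets was that of Sod2, which averaged 199 CPM in neratinib and 395 CPM in vehicle libraries (n = 4 each; log2 −1.01, SE 0.39, unadjusted p = 0.0260, adjusted p = 1 by edgeR). Fbxo32 was at 29.8 ± 17.0 CPM in neratinib and 9.69 ± 5.05 CPM in vehicle libraries (unadjusted p = 0.0675, adjusted p = 1 by edgeR). Gsk3a, a kinase inhibited by AKT, was at 31.8 ± 2.61 CPM in neratinib and 10.2 ± 6.87 CPM in vehicle libraries (unadjusted p = 0.0530, adjusted p = 1 by edgeR), and Igf1r was at 19.8 ± 8.87 CPM in neratinib and 39.7 ± 11.8 CPM in vehicle libraries (unadjusted p = 0.118, adjusted p = 1 by edgeR). The FOXO target list had a median of −0.04 against 0.06 over all genes.

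In EpCAM+ cells the PI3K subunit Pik3cb had 1.50 ± 0.464 CPM in neratinib and 2.41 ± 1.04 CPM in vehicle libraries (SD, n = 5 and 6; unadjusted p = 0.0530, adjusted p = 0.999 by edgeR). Txnip, which limits glucose uptake, had 169 ± 54.4 CPM in neratinib and 123 ± 29.2 CPM in vehicle libraries (unadjusted p = 0.0808, adjusted p = 0.999 by edgeR), and Ccng2, a cyclin gene of quiescent cells, had 28.0 ± 7.34 CPM in neratinib and 35.2 ± 6.56 CPM in vehicle libraries (unadjusted p = 0.0790, adjusted p = 0.999 by edgeR). The median of the FOXO target list in EpCAM+ cells was 0.02 against 0.00 over all genes.

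The 9 genes did not vary as a block across libraries. There were 36 pairs of members in each population. In EpCAM+ cells the one Pearson correlation of log2 CPM beyond 0.7 in size was between Pik3ca and Pik3r1 (Pearson r = −0.75, Spearman rho = −0.67, 11 libraries). That pair is the most extreme of the 36. The EpCAM+ library V53176, which stood apart, held both the most Pik3ca (25.5 CPM) and the least Pik3r1 (25.4 CPM). The correlation was not taken without V53176 and is a description only. By Spearman rho, Pik3ca and Foxo1 (0.72) and Irs2 and Akt1 (0.71) were beyond that size in EpCAM+ cells. In PDPN+ cells no pair was beyond it by Pearson r over 8 libraries, and Pik3ca and Akt1 were by rho (r = −0.66, rho = −0.79). The genes closest to each member over the libraries of a population were, in EpCAM+ cells, Acot2 for Insr (r = 0.94), Gm14636 for Irs1 (0.93), Ino80 for Irs2 (0.90) and Alpi for Pik3r1 (0.94). In PDPN+ cells they were Zfp667 for Insr (0.98), Eefsec for Irs1 (0.98), Rbm25 for Irs2 (0.99), and Ikbke for Foxo1 (0.97). These correlations are the highest among 10676 genes in EpCAM+ and 11306 in PDPN+ cells over 11 and 8 libraries that share depth and scaling, and they are given as descriptions only.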

How the data were processed

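Per the labels' protocols, a small-sample kit gave the RNA and a low-input kit the libraries, with PCR cycles set by the RNA amount. Per the submitters' processing notes, reads were quantified with Salmon 1.9.0, and the notes name the GRCm39/mm39 build; release and strand setting: not given in the sources used here. For every transcript the authors deposited an estimated count from Salmon, without normalisation, a TPM (transcripts-per-million) value and an effective length, per the file headers. Without a known strand setting, reads of overlapping antisense genes cannot be told apart.

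From these, 137063 of 147828 transcripts per table were matched by identifier to GENCODE M21, summed to 51707 genes and rounded to whole reads. That annotation is of GRCm38 and was used for names and transcript types only. The other 10765 transcripts, with 4.07 to 8.96% of reads in PDPN+ and 1.76 to 2.26% in EpCAM+ libraries, were not used here. The tests used edgeR 4.0.16 (R 4.3.3) with TMM, filterByExpr and its robust quasi-likelihood F-test, adjusted by Benjamini-Hochberg over all genes tested at 0.05. Neratinib and vehicle were compared in each population on its own. The population contrast (mean of the PDPN+ groups minus mean of the EpCAM+ groups) and the interaction were fitted over 19 libraries with 4 group means. CPM shown per library use 1 scaling over all 19 libraries, which differs from the scaling inside the neratinib fits. Where no read was counted, up to 3 reads were allowed, at most 0.11 CPM; this covers counting error only, since PCR copies are not independent molecules.

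Named genes were the 9 members, Pdpn and Epcam, up to 3 per direction of each pathway list with the smallest p among those passing between populations, the 2 with the smallest p of each list under neratinib, and the genes most like each member by Pearson r of log2(CPM + 1) with a mean of at least 4 CPM; not every one is printed. The members and lists were chosen with earlier results of these data known. Libraries of a group carry different mouse numbers, and the p-values rest on reading those as separate mice. Same-numbered libraries deviated from their group means with correlations of −0.187 to 0.0588 over 8 pairs; the pairing rests on the mouse number. The code was tested on simulated data with known changes. These were placed only in genes with a mean above 4 CPM, so the rates below do not cover genes under it. For neratinib in PDPN+ cells edgeR recovered 0% of 2-fold and 7.07% of 4-fold changes. In EpCAM+ cells it recovered 40% and 84%, and between populations 13% and 46%. DESeq2 recovered more in each comparison, but calls in unchanged genes are not given here, so these rates do not rank the tools. The alternatives tried were no low-count filter, DESeq2 1.42.0, edgeR with its size factors, offsets for transcript length, log2(TPM + 1) and log2(TPM + 0.1) with limma 3.58.1 at a minimum of 1 TPM, the column digit of the code in the deposited file names, all 19 libraries in 1 fit, the mouse as a block, and leaving out single libraries or those standing apart. For the population and interaction fits, leaving out the libraries standing apart was partly added after the data were seen, as was the fit of the same 8 mice without a block.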

Additional observations from a re-analysis of the deposited data

Results flagged for a closer look

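Foxo3 in N53194 of the PDPN+ sort had 4.29 CPM, whereas the other neratinib PDPN+ libraries had 21.9, 25.4 and 24.2 CPM. It was singled out because its gap to the nearest library was 0.832 of the group's range. Of the 40 groups of libraries examined in this way 1 was singled out, and about 2 would be at a chance of 1 in 20.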

How the results depend on the processing

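Irs2 kept its higher level in PDPN+ cells under all 12 alternatives and without any 1 of the 19 libraries. Of 108 population values of the 9 genes under alternatives, 71 kept direction and call, 27 lost the call, 4 gained it and 6 changed sign. The cause was not tested for any change below. Genes called between populations numbered 9673, against 4206 with the file-name column as a covariate and 9040 to 10632 without 1 library. The share of higher calls, 49.2% in the counts fit, was 38.2% with the mouse as a block (6792 genes called). In the same 8 mice without a block it was 48.7%. On log2(TPM + 1) it was 26.9%, so the share of each direction depends on the fit and the scale. Under neratinib, edgeR called 0 genes, DESeq2 called 13 in PDPN+ and 8 in EpCAM+ cells, and 1 fit of all 19 libraries called 111 in PDPN+ cells. Interaction calls, 13 in the 4-group fit, were 633 with DESeq2, 3 and 2 on log2(TPM + 1) with and without a filter, 23 with the column, 572 without the 2 PDPN+ libraries standing apart, 1 without the 3 EpCAM+ ones, 9 to 131 without 1 library, 0 with the mouse as a block (347 at an unadjusted p under 0.05), and 1 in the same 8 mice without a block.

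Log2 values that changed sign, none of them called, were these. For neratinib in PDPN+ cells, Pik3r1 was −0.72 with length offsets, −0.46 on log2(TPM + 1) with and without a filter and −0.49 on log2(TPM + 0.1), and Pik3ip1 was −0.0311 with the column. For neratinib in EpCAM+ cells, Akt1 was 0.0467 and Foxo1 0.0312 on log2(TPM + 1), 0.0479 and 0.0456 on log2(TPM + 0.1), and 0.0182 and 0.0271 without the 3 libraries standing apart. Between populations, Akt1 was −0.47 on log2(TPM + 1), −0.49 on log2(TPM + 0.1) and −0.0672 with the mouse as a block, and Insr was 0.0197 with the column and 0.0079 without the 2 PDPN+ libraries. For the interaction, Pik3r1 was −0.94 with length offsets, −0.69 on log2(TPM + 1) and −0.74 on log2(TPM + 0.1). Without 1 library, ranges that crossed 0 were, for neratinib in PDPN+ cells, −0.46 to 1.31 (Pik3ip1), −0.34 to 0.67 (Pik3ca), −1.35 to 0.0029 (Irs1) and −0.23 to 0.68 (Pik3r1); in EpCAM+ cells −0.0206 to 0.19 (Irs2), −0.0735 to 0.0285 (Foxo1) and −0.1249 to 0.0294 (Akt1); between populations −0.0355 to 0.2166 (Akt1); and for the interaction −0.47 to 0.42 (Pik3r1), −0.32 to 1.39 (Pik3ip1) and −0.10 to 0.90 (Pik3ca). Depth limits levels under 0.11 CPM.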
